A study of Mus musculus with 56 samples.

Results

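Loss of miR-122 from the adult mouse liver was followed here at its first transcriptome time point, 21 days after Cre, against uninjected livers. RNA-seq of poly-A RNA was compared in 3 mice of each group, and every gene with a mean of at least 1 FPKM (sequenced fragments scaled by transcript length and by library size) over these 6 libraries was tested, which were 10743 of the 21888 gene symbols in the table. The genes Acap3 (1.0005 FPKM) and Ube2cbp (1.0007) lay just inside this limit, and Meis1 and AI428936 (both 0.99867) just outside it. Both groups were mice of the strain background 129Sv/J that carry loxP sites around the miR-122 precursor in every cell. The day 21 mice had received a recombinant adeno-associated virus of serotype 8 that expresses Cre from the Ef1a promoter, by tail vein, as adults whose exact age is not given in the sources used here. The day 0 mice received nothing, neither vector nor Cre. What the vector, the Cre enzyme, the injection and the loss of miR-122 each did therefore cannot be told apart in this comparison. The Ef1a promoter is active in many cell types, so excision is not tied to hepatocytes by the promoter. The study holds 14 RNA-seq libraries in all, 1 for each mouse, and the others (days 45, 100 and 200 after Cre and a germline knockout) enter here only through the shared estimate of the spread and, for day 45, as values beside those of day 21. In that estimate the single mouse of day 100 and the single mouse of day 200 were taken as 1 group.

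miR-122 is the most abundant microRNA of the hepatocyte. A microRNA pairs through its seed, the bases near its 5′ end, with sites that lie mostly in the 3′ UTR of mRNAs, and lowers their stability and translation. When a microRNA is lost its direct targets are released, and in the liver those of miR-122 include genes of iron handling, glycolysis, membrane traffic and the cell cycle. Livers that lose miR-122 for long are known for steatosis, inflammation, fibrosis and tumours.

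Small RNA libraries of the same groups show how much miR-122 was left. It made up 73.3%, 59.2% and 66.7% of microRNA reads in the uninjected mice A, B and C, and 12.5%, 13.2% and 8.22% in the day 21 mice. These shares rest on 494314 to 867005 microRNA reads a library, recovered from the steps of the deposited RPM. The mean fell from 66.4 ± 7.06% to 11.3 ± 2.70% (SD, n = 3 mice each), 5.86-fold, with all day 21 mice below all day 0 mice (exact two-sided permutation test, p = 0.1, the smallest that 3 mice against 3 allow). Per read of any other microRNA there were 1.45 to 2.74 reads of miR-122 at day 0 and 0.0896 to 0.152 at day 21.

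FPKM hold no fragment numbers. The lowest values show steps the size of 1 fragment, from which a depth of roughly 50.9 to 54.8 M fragments was read for day 0 and 37.1 to 45.1 M for day 21, and 15051 to 15620 symbols were above 0. Y-linked genes and Xist, the RNA of the inactive X chromosome, showed 2 female and 1 male mouse in each group: day 0 mouse B and day 21 mouse C are male. Some genes that every hepatocyte uses were listed at 0. Alb, the gene of serum albumin, and Serpina1a were at 0 in all 6 libraries, Ahsg in 3 and the transferrin gene Trf in 4, while the other libraries held 7425 to 11222 FPKM of Ahsg and 6279 to 7843 of Trf. In all, 15 symbols were at 0 in 1 library or more and above 100 FPKM in another, and none of them was called. The hepatocyte markers Ttr and Apoa1 were high throughout, between 7879 and 9988 FPKM and between 6737 and 13489 FPKM.

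With limma, which fits 1 linear model per gene and shares the estimate of variance between genes, 846 genes passed an adjusted p of 0.05 by the Benjamini-Hochberg method, which is 7.87% of those tested. Rises outnumbered falls, with 680 genes (6.33%) higher and 166 (1.55%) lower at day 21. The change passed 1 on the log2 scale for 335 of the rises and went below −1 for 52 of the falls. Fold changes here are differences of log2(FPKM + 1), which understate the change of genes with few FPKM. The 3 day 21 mice all lay above the 3 day 0 mice for 2487 genes (23.1% of those tested) and all below them for 1482 (13.8%), called or not. The number of calls rested on single mice. It fell to 267 without the male day 21 mouse C, to 279 without the male day 0 mouse B, to 337 without day 0 mouse A and to 403 without day 21 mouse B, and 214 genes (180 higher, 34 lower) were called whichever mouse was left out. With sex as a term, added after the data were seen, 1011 genes were called, 843 of which are among the 846.

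**Figure D1:**
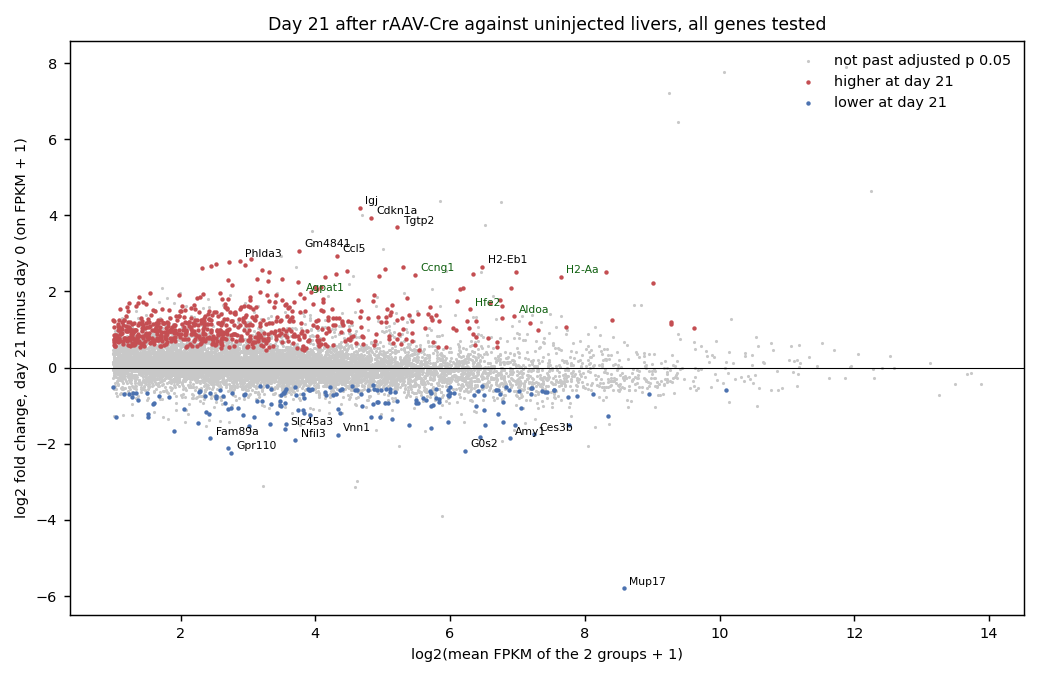
Each point is 1 of the 10743 genes tested, with its mean level on the x axis (log2 of FPKM + 1) and the log2 fold change of day 21 minus day 0 on the y axis. The 680 genes called higher are red and the 166 called lower are blue; Igj (4.19) is the called gene with the largest rise and Mup17 (−5.80) the one with the largest fall. The grey points above Igj did not pass the threshold, and all but Sult2a7 of them are listed at 0 in some libraries.

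The direct targets of miR-122 known from earlier work on this microRNA were the first list examined. Of 22 such genes 21 could be tested, and 11 were called higher and none lower, against 6.33% of all genes called higher. Their median log2 fold change was 0.88, against 0.05 over all genes tested. The median over the list, taken for each mouse against the day 0 mean, was 0.86, 0.86 and 0.80 in the day 21 mice A, B and C and between −0.04 and 0.06 in the day 0 mice. The 3 livers lay close together in this list, and for 18 of the 21 genes all day 21 mice lay above all day 0 mice, against 23.1% of all genes. With 1 mouse left out, 6 to 9 of the 21 were called, the fewest without day 21 mouse C and 7 without day 0 mouse A.

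Ccng1 encodes cyclin G1, a regulator of the cell cycle and of p53. It had 12.5, 12.2 and 13.9 FPKM in the day 0 mice A, B and C and 61.9, 89.4 and 72.5 FPKM in the day 21 mice (log2 2.43, SE 0.38, adjusted p 0.0041), and lies at chr11:40562053-40568788 of mm9. It is the largest rise among these targets, with means 5.80-fold apart. Agpat1, an acyltransferase that makes phosphatidic acid, went from 5.64, 3.91 and 4.41 FPKM to 26.8, 17.3 and 18.0 (log2 1.93, adjusted p 0.0026). Hfe2, which encodes hemojuvelin, a co-receptor that raises the iron hormone hepcidin, went from 40, 30.4 and 49.7 to 118, 108 and 120 FPKM (log2 1.53, adjusted p 0.0023). Hamp, the hepcidin gene itself, had 1636 to 3147 FPKM at day 0 and 2138 to 5291 at day 21 and was not called (log2 0.65, adjusted p 0.37).

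Tmed3, a carrier protein of the early secretory path, had 21.6, 23.9 and 20.9 FPKM before and 65.0, 55.8 and 57.5 after (log2 1.38). Ndrg3 rose by 1.12, Iqgap1, a scaffold of the actin skeleton, by 1.14, Fundc2 of the outer mitochondrial membrane by 1.07, and Mapre1, which binds the growing ends of microtubules, by 0.72 on the log2 scale. Of the metabolic targets, Aldoa, the aldolase of muscle and of proliferating cells, went from 62.1 to 73.1 FPKM at day 0 to 153 to 211 FPKM at day 21 (log2 1.35, adjusted p 0.01). Cs, citrate synthase, rose by 0.78 and P4ha1, a collagen prolyl hydroxylase subunit, by 0.68.

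The other listed targets were not called. Hfe, the hereditary haemochromatosis gene, had 32.6, 29.8 and 34.0 FPKM at day 0 and 32.5, 30.7 and 30.7 at day 21, so that the groups overlapped (log2 −0.04, SE 0.18). Entpd4 had −0.25 (SE 0.15), and the transcription factor Cux1 0.35 (SE 0.17). Adam10 (0.82), Cd320 (0.88), Klf6 (1.20), Pkm2 (1.21), Rhoa (0.41), Adam17 (0.42) and Gys1 (0.50) had day 21 mice above every day 0 mouse but did not pass the threshold. Slc7a1, a cationic amino acid transporter and a classic target, was below the limit for testing, at 0.138, 0.175 and 0.241 FPKM before and 0.528, 0.566 and 0.833 after.

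**Figure D2:**
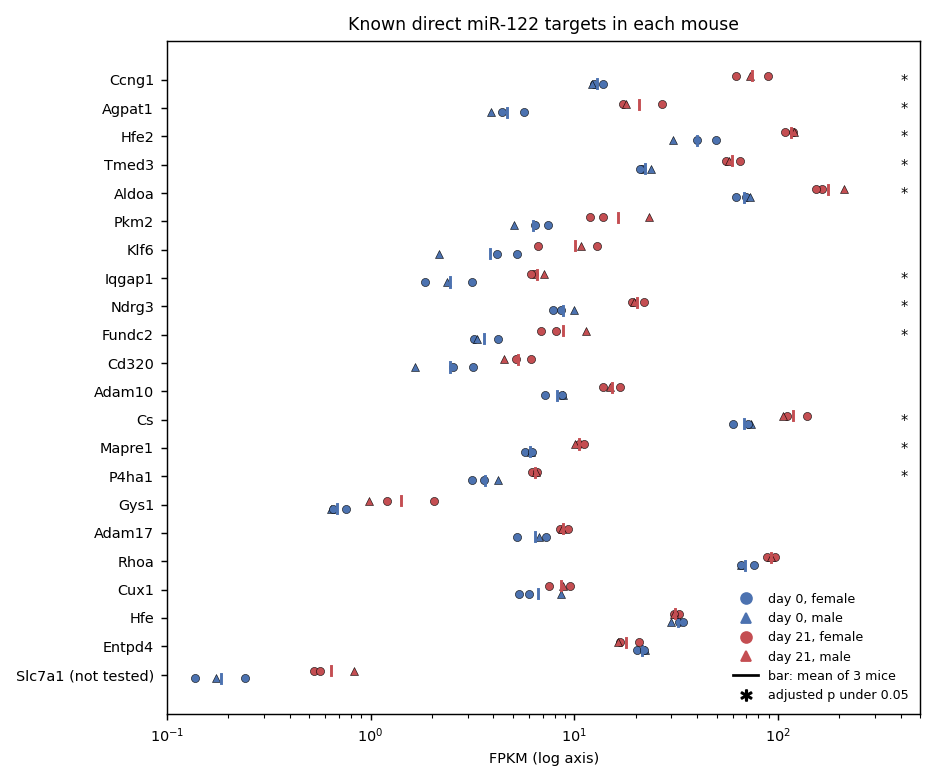
FPKM (log axis) of the 22 known direct miR-122 targets in each mouse, day 0 in blue and day 21 in red, females as circles and males as triangles, vertical bars at the mean of 3 mice, ordered by log2 fold change with the untested Slc7a1 at the bottom. Stars mark the 11 genes past an adjusted p of 0.05. The red points of Ccng1 sit between 61.9 and 89.4 FPKM, and the blue ones between 12.2 and 13.9.

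The study's own list of predicted miR-122 targets, which its authors limited to genes expressed in these livers, has 129 members tested, 8 of them shared with the list above. limma called 24 higher (18.6%, against 6.33% of all genes) and 1 lower (0.775%, against 1.55%). In all, 112 of the 129 (86.8%, against 55.9% of all genes) had a log2 fold change above 0, and the median was 0.44. It was 0.43, 0.47 and 0.27 in the day 21 mice A, B and C, and between −0.07 and 0.07 in the day 0 mice. The count of 24 became 10 without day 21 mouse C, 12 without day 0 mouse B and 13 without day 0 mouse A and 14 without day 21 mouse B, while the 6 libraries fitted alone gave 42. Of the 121 that are not among the known targets 17 were called higher.

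After Ccng1, the largest rises on that list were Ms4a6c (log2 1.61), G6pc3 (1.6), Ccrn4l (1.43, adjusted p 0.26), Ms4a6b (1.36) and Aldoa. G6pc3, a glucose-6-phosphatase found in most cells, went from 4.86, 3.37 and 4.45 FPKM to 16, 13.7 and 14.5 (SE 0.23, adjusted p 0.0031). The groups lay far apart and each was narrow. Ms4a6b and Ms4a6c are membrane proteins known from macrophages and T cells, are close paralogs, and rose beside the markers of those cells given below. What share of their rise comes from such cells was not tested. Foxo3, a transcription factor of stress resistance, rose by 1.34, from 2.53, 4.27 and 3.49 to 10.6, 11.5 and 8.27 FPKM, and Vamp3, a vesicle fusion protein, by 1.23. Mrrf, which recycles mitochondrial ribosomes, is the single member called lower, at −0.55 (13.3, 13.2 and 12.6 FPKM before, 8.67, 8.19 and 8.8 after). Inhba (−0.75, SE 0.49) and Haao (−0.52, SE 0.26) did not pass the threshold.

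The study asked whether other microRNAs repress their targets more when miR-122 is gone, so predicted targets of 5 further microRNAs were looked at in the same way. The mature sequences of the 3 most abundant of them in liver, from RefSeq with their GRCm38.p6 positions, are shown because their seeds (bases 2 to 8, in capitals) were searched in 3′ UTRs. They come from chr13:48538239-48538260, chr11:86584120-86584141 (both on the minus strand) and chr1:23272274-23272295 (plus strand), in this order.
mmu-let-7a-5p: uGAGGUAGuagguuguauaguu
mmu-miR-21a-5p: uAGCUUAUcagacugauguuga
mmu-miR-30a-5p: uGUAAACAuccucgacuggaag
Of all genes 6.33% were called higher, 1.55% lower, and 55.9% lay above 0 at day 21. Of the predicted targets 5.18% (let-7), 3.65% (miR-21) and 5.37% (miR-30) were called higher, and 63.7%, 69.3% and 67.5% lay above 0. The median log2 fold change was 0.08 for let-7 (637 tested, 33 called higher, 4 lower), 0.12 for miR-21 (192 tested, 7 higher, 3 lower) and 0.11 for miR-30 (819 tested, 44 higher, 7 lower), against 0.05 for all genes. With 1 mouse left out, 5 to 21 (let-7), 0 to 6 (miR-21) and 14 to 31 (miR-30) were called higher, and 213 to 518 of all genes. The median was 0.10 for miR-410 (380 tested) and, below that of all genes, 0.03 for miR-483 (64 tested).

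A 3′ UTR on the same genome build (mm9), from GENCODE M1 transcripts matched by symbol, was found for 10482 genes, 97.6% of those tested. Genes with an 8-base match to the miR-21 seed (ATAAGCT followed by A, in 204 genes or 1.95% of UTRs) had a median of 0.084, and genes with none of its matches 0.043. For let-7 (CTACCTC followed by A, 364 genes) the medians were 0.039 and 0.043, and for miR-30 (TGTTTAC followed by A, 784 genes) 0.106 and 0.033. Over all UTRs, genes with such an 8-base match lay above those with none for miR-21 and miR-30, and slightly below for let-7. The UTRs with a match are longer, with medians of 2222.5 to 2647.5 bases against 921 to 994 bases. Among UTRs of over 1741 bases the medians with and without a match were 0.087 and 0.106 for miR-21, 0.093 and 0.109 for let-7 and 0.105 and 0.107 for miR-30. Among UTRs of up to 670 bases they were −0.099 (11 genes) and −0.045 for miR-21, −0.07 and −0.044 for let-7 and 0.08 and −0.046 for miR-30. In the class between these lengths they were 0.089 and 0.058 for miR-21, 0.008 and 0.058 for let-7 and 0.116 and 0.051 for miR-30. Genes with an 8-base let-7 match thus had the lower median in each of the 3 length classes. For miR-21 and miR-30 the direction was not the same in every class. The 1346 genes with only a 7-base let-7 match lay above those with none over all UTRs (0.079 against 0.043). They also lay above in the middle class (0.069 against 0.058), but below in the short and long classes (−0.075 and 0.093). Of the single genes the study follows as targets of these microRNAs, Nr6a1, an orphan nuclear receptor, had 2.11, 2.86 and 2.88 FPKM before and 2.49, 1.58 and 1.09 after (log2 −0.44, SE 0.18, adjusted p 0.19). Pdcd4, a translation inhibitor, had 34.6, 51.8 and 49.8 before and 43.9, 31.9 and 23.6 after (−0.46, adjusted p 0.40), with overlapping groups. Srsf7 (−0.07) and Stag2 (0.09) were close to 0.

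A part of the p53 response rose. p53 is the transcription factor that answers DNA damage with cell cycle arrest, repair or death. Of 21 listed genes tested 10 were called higher (47.6%, against 6.33% of all genes), 1 was called lower and 4 had a log2 fold change below 0, with a median of 0.98, and the per-mouse medians were 0.95, 1.06 and 0.96 in the day 21 mice. With 1 mouse left out, 8 to 10 were called higher. Cdkn1a, the cell cycle inhibitor p21, had 2.00, 1.36 and 4.34 FPKM at day 0 and 32.7, 54.9 and 69.3 at day 21, with means 20.4-fold apart (log2 3.93, SE 0.50, adjusted p 0.0026). Phlda3, an inhibitor of AKT signalling, went from 1.21, 0.511 and 0.832 to 9.24, 14.7 and 11.8 FPKM (log2 2.80, adjusted p 0.00048). Eda2r, a death receptor of the TNF family, rose from under 0.2 FPKM in each mouse to 1.53, 5.61 and 4.08 (log2 1.97).

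Smaller rises were seen for Gadd45a (1.66), Sesn2 (1.22), Ddit4l (1.15), Zmat3 (1.07), Bax (0.88), which opens the mitochondrial membrane in cell death, and Aen (0.86), a nuclease of dying cells. Ccng1 belongs to both this list and the miR-122 targets, and Sesn2 to both this list and the predicted ones. Ei24 was called lower, at −0.60. Btg2, an antiproliferative gene that is also an immediate early gene, had 73.9, 3.55 and 35.5 FPKM at day 0 and 103, 192 and 113 at day 21 and did not pass the threshold (2.50, adjusted p 0.079).

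RefSeq's promoter windows (250 bases before to 50 after a start, GRCm38.p6) were searched for 2 CATG cores with 6 bases of any kind between them, a pair found in many p53 sites that reads the same on both strands. It was present in 225 of the 27025 genes of that table (0.833%), in 31 of the 7724 tested genes that matched it by symbol (0.401%), in 4 of the 492 that were called higher and in 1 of 17 tested genes of the p53 list. That gene is Cdkn1a, whose upstream start window is printed here with the motif in capitals (chr17:29090891-29090984, plus strand).
Cdkn1a: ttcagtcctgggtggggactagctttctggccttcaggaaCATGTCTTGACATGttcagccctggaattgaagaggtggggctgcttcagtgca

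Several groups of immune genes rose. MHC class II molecules present peptides to helper T cells and are made by B cells, dendritic cells and activated macrophages. Of 10 tested genes of this path 9 were called higher (90.0%, against 6.33% of all genes), with a median of 1.95. Cd74, the invariant chain, had 70.6, 63.1 and 143 FPKM at day 0 and 377, 353 and 896 at day 21 (log2 2.50, SE 0.53, adjusted p 0.014). H2-Aa went from 46.9, 38.4 and 110 to 252, 232 and 513 (log2 2.39), H2-Ab1 from 30, 20.0 and 57.9 to 146, 134 and 360 (2.52), and H2-Eb1 from 18.2, 13.3 and 40.5 to 113, 101 and 243 (2.65). The order of the mice was the same in each, with the male day 21 mouse C highest and the male day 0 mouse B lowest. Ciita, the factor that switches this path on, rose by 1.24, from at most 0.513 FPKM to 2.17, 1.44 and 2.87. Of the 10 genes 2 were called without day 21 mouse C, and likewise without day 0 mouse A or B.

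The Y box is an element that most class II promoters share. Its letters CTGATTGG, which contain the inverted CCAAT box ATTGG, were found on either strand in 1271 of 27025 genes (4.70%), in 483 of the 7724 tested genes (6.25%), in 27 of the 492 called higher (5.49%) and in 3 of the 7 tested class II genes with an entry. The stretches of the 2 called genes among them are printed with the motif in capitals, for H2-Aa from chr17:34287827-34287914 (minus strand) and for H2-Eb1 from chr17:34305765-34305852 (plus strand).
H2-Aa: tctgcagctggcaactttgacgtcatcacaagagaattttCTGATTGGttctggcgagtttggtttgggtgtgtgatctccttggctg
H2-Eb1: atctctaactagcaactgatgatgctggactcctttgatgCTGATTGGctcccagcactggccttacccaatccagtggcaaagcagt

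T and NK cell genes were low at day 0, and 17 of 23 passed the limit for testing. A gene low at day 0 passed it only with high day 21 values, so the limit itself favours members that rose. Of the 17, 13 were called higher at day 21 (76.5%, against 6.33% of all genes) and none lower. Without day 0 mouse B or without day 21 mouse C, 8 were called. Cd8a, the co-receptor of cytotoxic T cells, had 0.087, 0.067 and 0.134 FPKM at day 0 and 2.81, 1.85 and 4.72 at day 21 (log2 1.85, adjusted p 0.0031). Nkg7, a protein of cytotoxic granules, went from 1.73, 0.766 and 2.36 to 15.5, 8.35 and 20.7 FPKM (log2 2.56), and the granzyme gene Gzma from 1.41, 0.934 and 2.17 to 8.33, 10.7 and 11.4 (2.17). Cd3d, Cd3e and Cd3g of the T cell receptor complex rose by 1.16, 1.24 and 1.85. The summed level of the whole list was 26.5, 12 and 29.1 FPKM at day 0 and 97.6, 76.6 and 158 at day 21. In bulk tissue, more cells of a type and more RNA in each cannot be told apart.

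Of the B and plasma cell list 6 of 11 genes passed the limit for testing, which here too favours members that rose. Of these 6, 5 were called higher (83.3%, against 6.33% of all genes). Igj, the joining chain of secreted antibodies, had 1.05, 0.534 and 0.621 FPKM at day 0 and 17.7, 13.7 and 112 at day 21, the largest rise of any called gene (log2 4.19, SE 0.68, adjusted p 0.0044). Its day 21 mean was 47.9 ± 55.9 FPKM (SD, n = 3), with mouse C far above the other two, and it was called whichever mouse was left out. Cd79a (0.99), Blnk (1.04), Pou2af1 (1.08) and Ms4a1 (0.86) rose by less, and Cd79b (1.14, adjusted p 0.053) did not pass. The defining genes Cd22 and Pax5 were below the limit for testing, and with any 1 mouse left out 1 to 3 of the 6 were called.

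Recruited myeloid cells, which enter an inflamed liver from the blood, and resident Kupffer cells were read from separate lists. Of the recruited list 11 of 14 genes passed the limit for testing, and 8 of the 11 were called higher (72.7%, against 6.33% of all genes). The 1 member below 0 (log2 −0.46) had all day 21 mice below all day 0 mice and was not called. Ly6c2 went from 1.25, 0.399 and 1.34 FPKM to 6.27, 5.37 and 18.3 (log2 2.31), Ccr2, the receptor that brings monocytes out of the marrow, rose by 1.38, and S100a8 and S100a9, which neutrophils and monocytes make in bulk, by 2.53 and 2.45. All 13 Kupffer genes lay above 0, with a median of 0.85, and 2 were called (15.4%), Emr1 (F4/80, 1.12) and Cd5l (1.17). None of the 13 was called without day 0 mouse A or B or day 21 mouse B or C, 1 without day 21 mouse A and 3 without day 0 mouse C. Clec4f (0.57, adjusted p 0.21) and Vsig4 (0.60, adjusted p 0.13), which mark resident Kupffer cells, did not pass, and Marco had 12.5, 2.29 and 8.53 FPKM before and 30.7, 21.7 and 54.6 after (2.19, adjusted p 0.075). Without day 0 mouse B or day 21 mouse C none of the recruited list was called, without day 0 mouse A 1 and without day 21 mouse B 4. The recruited list summed to 117 to 206 FPKM at day 0 and 319 to 623 at day 21, and the Kupffer list to 347 to 633 and 853 to 986.

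Chemokines, the proteins that guide these cells, and their receptors had 24 of 30 genes past the limit for testing. Of the 24, 15 were called higher (62.5%, against 6.33% of all genes). Ccl5, which attracts T cells, had 4.79, 1.25 and 4.66 FPKM at day 0 and 27.9, 18.7 and 56.8 at day 21 (log2 2.93, adjusted p 0.0093). Ccl3 (2.62), Ccl4 (2.66) and Ccl8 (2.77) were under 1 FPKM in every day 0 mouse and between 3.10 and 21.1 FPKM in the day 21 mice. Cxcl9 and Cxcl10, the ligands of Cxcr3, a receptor of activated T cells, rose by 2.41 and 2.37, while Cxcl12 at 123 to 189 FPKM before and 162 to 276 after did not pass (0.47, adjusted p 0.32). Of the chemokine list 5 genes were called without day 0 mouse B or day 21 mouse C, and 7 without day 0 mouse A. Vcam1, an adhesion molecule of activated vessels, rose by 2.06, from 4.69, 3.67 and 6.90 to 14.6, 23.9 and 37.8 FPKM.

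All 35 tested interferon-stimulated genes had a log2 fold change above 0, against 55.9% of all genes, with a median of 1.00, and 11 were called (31.4%, against 6.33%). Gbp2, a GTPase that attacks vacuoles of pathogens, went from 6.73, 2.27 and 7.91 to 21.7, 19.5 and 37.7 FPKM (log2 2.11, adjusted p 0.0041). Igtp, a GTPase of the same response, rose by 2.09, and the transcription factor Irf1 by 1.23. Bst2, which tethers viruses and is abundant in liver, had 178 to 238 FPKM before and 191 to 263 after (0.08, adjusted p 0.94). The 11 calls became 4 without day 21 mouse C and 5 without day 0 mouse B. Tgtp2 (3.68) and Gm4841 (3.06), members of the interferon-induced GTPase families that are not on the list, are among the 12 largest rises. Tgtp2 had 1.36, 2.57 and 11.5 FPKM at day 0 and 62.3, 30.4 and 109 at day 21. Both families hold near-identical copies, between which reads may be split, so their single values are uncertain.

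The core of the interferon-stimulated response element, 2 GAAA blocks with 2 bases of any kind between them, was found on either strand of the promoter window in 1079 of 27025 genes (3.99%), in 289 of the 7724 tested genes (3.74%), in 33 of the 492 called higher (6.71%) and in 14 of the 25 tested interferon-stimulated genes with an entry (56.0%). The match is shown in capitals for Cxcl10 (chr5:92349053-92349139, minus strand) and for Gbp2, where it lies on the other strand (chr3:142620564-142620653, plus strand).
Cxcl10: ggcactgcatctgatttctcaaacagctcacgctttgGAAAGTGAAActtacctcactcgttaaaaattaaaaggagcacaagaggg
Gbp2: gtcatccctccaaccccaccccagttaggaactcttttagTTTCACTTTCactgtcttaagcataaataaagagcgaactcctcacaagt

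**Figure D3:**
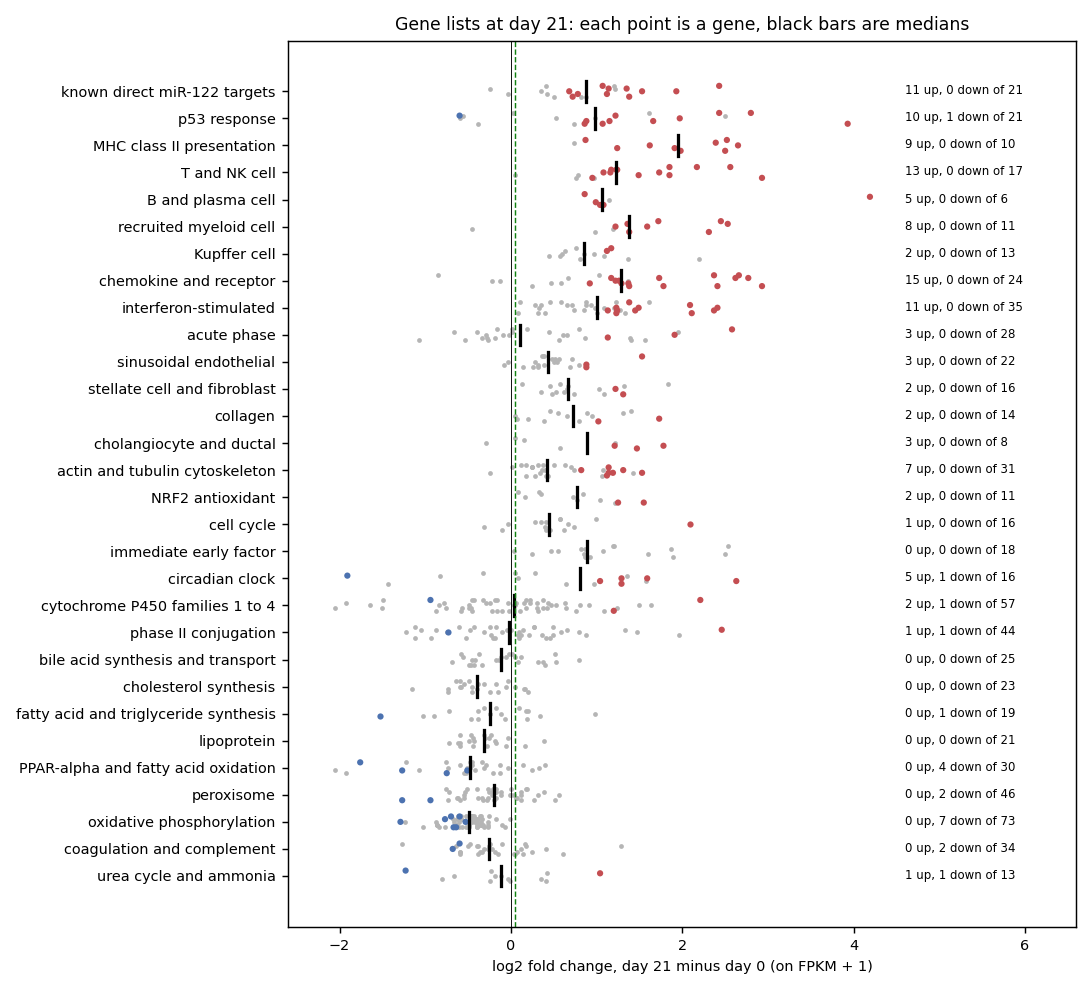
Log2 fold change of day 21 minus day 0 for the tested genes of 30 lists, with called genes in red (higher) or blue (lower), others in grey, a black bar at each list's median and a dashed line at the median of all genes (0.05). Medians run from 1.95 (MHC class II presentation) to −0.49 (oxidative phosphorylation), and the counts of calls stand at the right.

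Of 22 sinusoidal endothelial genes 3 were called higher (13.6%, against 6.33% of all genes), and 1 without day 0 mouse A or B or day 21 mouse B or C: Lyve1, a hyaluronan receptor, at 2.03, 3.45 and 4.66 FPKM before and 8.86, 13.9 and 11.6 after (log2 1.53, adjusted p 0.0048), Pecam1 (0.88) and Flt4 (0.88). Stellate cells, which make scar tissue, and fibroblasts had 2 of 16 called (12.5%), Vim (1.31) and Lum (1.22), and both calls were lost whichever mouse was left out. Of 14 collagens Col3a1 and Col14a1 were called (14.3%), and none without day 0 mouse B. All 14 collagens and all 16 stellate and fibroblast genes lay above 0, against 55.9% of all genes, with medians of 0.72 and 0.66. For 10 of the 14 and 11 of the 16 the day 21 mice all lay above the day 0 mice, against 23.1% of all genes. Col3a1 went from 6.75, 5.60 and 8.65 FPKM to 25.1, 20.5 and 31.2 (log2 1.73, adjusted p 0.026), but was called in 1 of the 6 fits that left out a mouse. Of 8 tested cholangiocyte and ductal genes Spp1 (1.78), Cd24a (1.47) and Epcam (1.21) were called (37.5%). Spp1, osteopontin, had 40.9, 45.2 and 54.6 FPKM before and 129, 170 and 195 after. The duct keratin Krt19 overlapped between the groups, with 1.01 to 2.19 FPKM before and 1.64 to 2.33 after (log2 0.15), as did Krt7 (0.05), and Sox9 and Cftr were below the limit for testing. Without day 0 mouse A or day 21 mouse C none of the 8 was called, and 1 was without day 0 mouse B.

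Proliferation genes were low. Mki67 had 0.161, 0.202 and 0.858 FPKM at day 0 and 1.21, 1.28 and 1.90 at day 21 and was not tested, as were 12 more of 29 listed cell cycle genes. Of the 16 tested, Ccnd1, the G1 cyclin that growth signals raise, was the one called (6.25%, against 6.33% of all genes called higher), with 41.3, 8.22 and 44.6 FPKM before and 95.7, 153 and 91.0 after (log2 2.09, adjusted p 0.027). It was called in 2 of the 6 fits that left out a mouse.

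Actin and tubulin genes had 7 of 31 called higher (22.6%, against 6.33% of all genes) and 30 of 31 above 0 (96.8%, against 55.9%), and 3 were called without day 0 mouse B, day 21 mouse B or day 21 mouse C and 4 without day 21 mouse A. Those called include Capg (1.53), the membrane linker Msn (1.31), which is a predicted target of miR-122, Tpm4 (1.19) and Tmsb4x (1.14). Several of them are abundant in blood cells too, and what share comes from those was not tested. Msn went from 7.62, 9.67 and 14.4 to 24.9, 26.0 and 29.7 FPKM. S100a4, a calcium-binding protein of migrating cells, rose by 2.51. Ptprc, the CD45 antigen of all white blood cells, which can serve as a yardstick, rose by 1.58, from 2.43, 2.00 and 3.87 to 8.69, 9.52 and 12.1 FPKM.

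**Figure D4:**
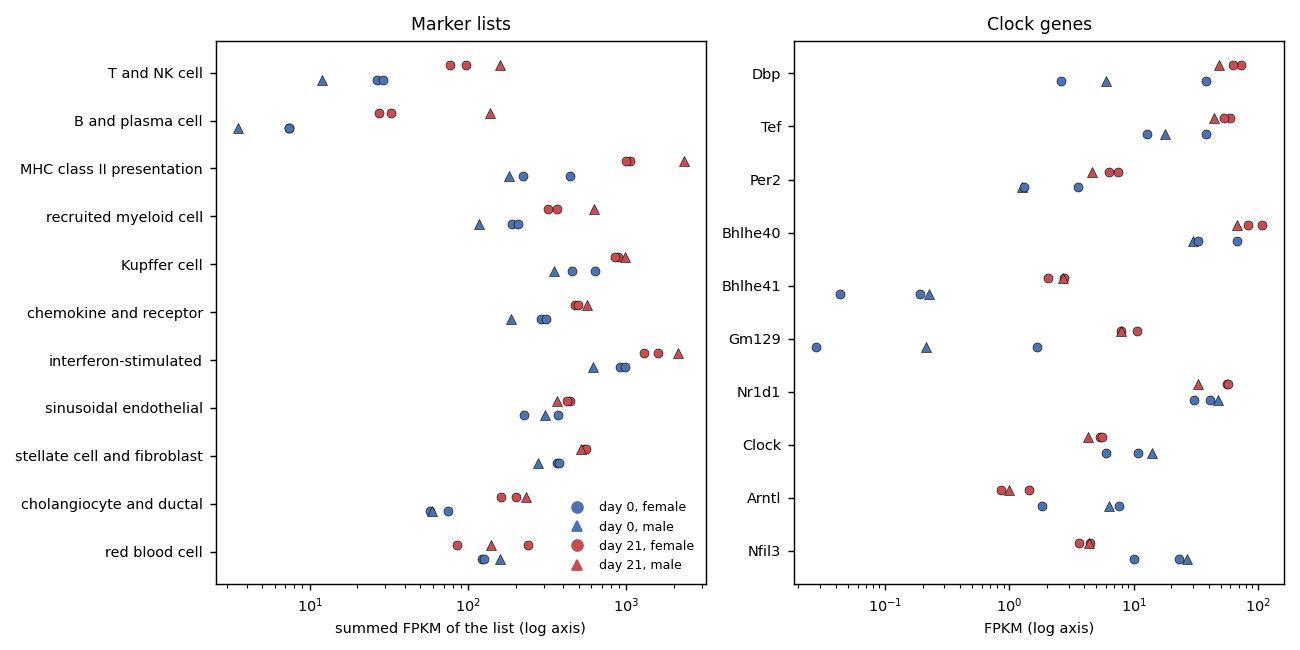
Left, summed FPKM of 11 marker lists in each mouse; right, FPKM of 10 clock genes (both log axes), day 0 in blue and day 21 in red, females as circles and males as triangles. The T and NK cell sums lie between 12 and 29.1 at day 0 and between 76.6 and 158 at day 21, and the red blood cell sums overlap. Day 0 mouse A is the blue point nearest to the red ones for Dbp, Tef, Per2 and Arntl.

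Subunits of oxidative phosphorylation lay below 0 at day 21. All 73 tested had a log2 fold change below 0, the median was −0.49 and 7 were called lower (9.59%, against 1.55% of all genes). For 60 of them the day 21 mice all lay below the day 0 mice, against 13.8% of all genes. Cox7c went from 35.6, 37.6 and 43.4 FPKM to 15.9, 11.1 and 20.1 (−1.29, adjusted p 0.019), Cox6c from 749, 559 and 541 to 370, 350 and 408 (−0.70, adjusted p 0.041), and Atp5f1 by −0.67. Ndufab1, a carrier protein of complex I, had −0.77 (adjusted p 0.012). With 1 mouse left out, between 0 (day 0 mouse A) and 3 of the subunits were called. The list summed to 16259 to 20941 FPKM at day 0 and to 12055 to 13569 at day 21.

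Genes of fatty acid oxidation had 4 of 30 called lower (13.3%, against 1.55% of all genes) and none higher, with a median of −0.48. None was called without day 0 mouse A, day 0 mouse B or day 21 mouse A, 1 without day 21 mouse B or C and 2 without day 0 mouse C. Acaa1b, a thiolase of the peroxisome, went from 454, 550 and 372 FPKM to 156, 189 and 224 (−1.27, adjusted p 0.017), Vnn1, a pantetheinase, fell by 1.76, Acadvl by 0.75 and Hadha by 0.51 on the log2 scale. Mlycd, which removes the malonyl-CoA that blocks this oxidation, had 61.5, 56.3 and 60.7 FPKM before and 29.9, 31.5 and 30.3 after (−0.94, adjusted p 0.0036). Acacb, which makes malonyl-CoA, fell by 1.53. On the list of fatty acid and triglyceride synthesis 1 of 19 genes was called lower (5.26%, against 1.55% of all genes). None of that list was called lower without day 0 mouse A, B or C or day 21 mouse B or C. Of 27 genes of glycolysis and gluconeogenesis 3 were called higher (11.1%, against 6.33% of all genes) and 1 lower (3.70%, against 1.55%). Their median was 0.04, and none was called higher without day 21 mouse C. G0s2, an inhibitor of fat breakdown, went from 135, 174 and 58.4 FPKM to 29.8, 19.9 and 22.5 (−2.18, adjusted p 0.0053), and is 1 of the 12 largest falls.

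Cholesterol synthesis, a path known to depend on miR-122, had 19 of 23 genes below 0 and a median of −0.40, but none called. The groups overlapped for most of these genes. Pmvk had 178, 67.2 and 93.4 FPKM at day 0 and 73.2, 42.2 and 31.8 at day 21 (−1.15, adjusted p 0.16), and Sqle 116, 36.9 and 67.4 before and 99.0, 69.5 and 39.1 after (−0.03, adjusted p 0.98). Lipoprotein genes had 19 of 21 below 0, a median of −0.31 and no call, though 1 was called lower without day 0 mouse B, with the sex term or in female mice alone. Of these, Apoa1 had 13489, 11396 and 11756 FPKM before and 6737, 7331 and 8212 after (−0.72, adjusted p 0.15). Fasn, fatty acid synthase, had 52.4 to 74.4 FPKM at day 0 and 35.7 to 153 at day 21, and bile acid genes had no call in 25.

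The shares of drug-metabolising enzymes called higher were 3.51% for cytochrome P450 and 2.27% for phase II genes, against 6.33% of all genes, and those called lower 1.75% and 2.27%, against 1.55%. Of 57 cytochrome P450 genes of families 1 to 4, Cyp2a5 and Cyp1a2 were called higher, neither of them without day 0 mouse B and 1 of them without day 0 mouse A, and Cyp2r1, a vitamin D hydroxylase, was called lower, with none of the list called lower without day 0 mouse A or day 21 mouse A or C. Cyp2a5 went from 342, 96.7 and 158 FPKM to 1081, 814 and 593 (log2 2.21, adjusted p 0.013), and Cyp1a2 from 361, 383 and 369 to 1064, 729 and 800 (1.20, adjusted p 0.013), while Cyp2e1, which oxidises ethanol, had 4989 to 5449 and 5936 to 7614 (0.30, adjusted p 0.50). Cyp2a5 has a close copy, Cyp2a4, with which reads may be shared. Of 44 phase II enzymes the glutathione transferase Gstm3 rose by 2.46 and Gsto1 fell by 0.73. None of the 44 was called higher without day 0 mouse A, and 4 were called lower without day 0 mouse B and none without any 1 of the other mice. Gstm3 had 20.6, 23.7 and 26.1 FPKM before and 176, 99.7 and 134 after. Hmox1 (1.55) and Ephx1 (1.25), which like Gstm3 are known NRF2 genes, were the 2 of 11 called on that list (18.2%, against 6.33% of all genes). None was called without day 0 mouse A, 1 without day 0 mouse B or C or day 21 mouse C, and 4 with the sex term.

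In nitrogen metabolism Oat, a pericentral enzyme, rose by 1.04 and Gls2, the liver glutaminase, fell by 1.23 on the log2 scale, while 11 of 13 genes were not called. With 1 mouse left out, 1 gene of the list was called higher without day 0 mouse C, 2 were called lower without day 21 mouse A, and none was called without any 1 of the other mice. Of 19 liver-enriched transcription factors 1 was called lower (5.26%, against 1.55% of all genes), Atf5, at 219, 146 and 181 FPKM before and 68.2, 82.8 and 43.8 after (−1.50, adjusted p 0.0058), and Hnf4a had 179 to 201 and 193 to 254 FPKM (0.16). Among 28 acute phase genes Lcn2 (2.58), Saa3 (1.91) and Socs3 (1.13) were called (10.7%, against 6.33% of all genes called higher), none of the list was without day 0 mouse B, day 21 mouse B or day 21 mouse C, and abundant ones such as Hpx (0.01) and Fgb (−0.27) were not. Of 34 coagulation and complement genes Plg (−0.60) and Mbl1 (−0.68) were called lower (5.88%, against 1.55% of all genes). Of this list 1 was called lower without day 0 mouse C, and none without any 1 of the other mice. Drosha, the nuclease that cuts primary microRNAs, had 2.65, 2.48 and 2.49 FPKM before and 6.11, 5.44 and 5.16 after (log2 0.89, adjusted p 0.0052), and was the one called of 17 microRNA pathway genes (5.88%, against 6.33% of all genes called higher).

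The 12 largest falls come from different groups of genes. Gpr110, an adhesion receptor, went from 5.58, 12.9 and 12 FPKM to 1.23, 1.06 and 1.44 (−2.24, adjusted p 0.0026), and Nlrp12, an inhibitor of inflammation, from 7.07, 12.3 and 9.07 to 0.377, 2.40 and 1.96 (−2.10). Amy1, an amylase, had 184, 191 and 177 FPKM before and 49.5, 60.2 and 42.0 after (−1.86, adjusted p 0.0033), and the carboxylesterase Ces3b 218, 281 and 198 before and 55.9, 56.7 and 97.3 after (−1.75). Fam89a (−1.86), Gm4952 (−1.83), the defensin Defb1 (−1.67) and Slc45a3 (−1.61) complete the set with G0s2, Vnn1, Nfil3 and Mup17. The fall of Mup17 is uncertain. It had 69.3, 2034 and 175 FPKM at day 0 and 2.41, 3.88 and 7.71 at day 21, but the major urinary proteins are near-identical copies. Mup10 was listed at 0 in day 0 mice A and B, and had 1114.4 FPKM in day 0 mouse C and 527 to 1288.6 FPKM at day 21. Summed over all 19 Mup symbols the females had 3324 and 4608.5 FPKM at day 0 and 3881 and 4637 at day 21, and the males 17096 and 18777.

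Several clock genes differed between the groups. These genes cycle over the day, so their levels depend on the hour at which a liver was taken, which is not given in the sources used here. Of 16 tested, 5 were called higher (31.2%, against 6.33% of all genes) and 1 lower, and Bhlhe40 is the one called gene whose groups overlap. The 5 calls became 1 without day 0 mouse B, 2 without day 0 mouse C or any 1 day 21 mouse, and 6 without day 0 mouse A. Dbp, an output factor of the clock, had 38.5, 5.99 and 2.60 FPKM in the day 0 mice A, B and C and 72.4, 62.4 and 49.0 in the day 21 mice (log2 2.63, adjusted p 0.032). Arntl, which encodes BMAL1 and peaks opposite to Dbp, had 1.82, 6.36 and 7.63 before and 1.44, 0.857 and 0.990 after (−1.44, adjusted p 0.058). Day 0 mouse A lay nearest to the day 21 mice in both. Tef (1.29), Per2 (1.29), Bhlhe40 (1.04) and Bhlhe41 (1.59) rose, Nfil3 fell by 1.91, and Gm129, which encodes a further repressor of the clock, is among the largest rises (2.71). Dbp was called in 1 of the 6 fits that left out a mouse. The part of the hour in any other change was not tested.

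Immediate early genes, which answer handling and stress within minutes, varied widely within the groups. All 18 had a log2 fold change above 0, against 55.9% of all genes, and none was called, against 6.33% called higher, though 2 were without day 0 mouse A or day 21 mouse A, and 1 with the sex term. Fos had 72.1, 0.520 and 19.8 FPKM at day 0 and 56.1, 169 and 44.9 at day 21, and Egr1 109, 4.65 and 72.9 before and 95.5, 177 and 129 after. Day 0 mouse B was the lowest in both. Of 19 sex-biased liver genes none was called with all mice and no sex term. With the sex term 1 was called lower (Cyp2c40, adjusted p 0.033), and 1 was called lower without day 0 mouse B. In female mice alone 1 was called higher and 3 lower. Cyp2c40, a female gene, had 285, 7.01 and 283 FPKM before and 57.0, 103 and 2.50 after.

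None of the imprinted transcripts that the study follows was called in the fit without a sex term, while H19 was called with it (adjusted p 0.0099) and in female mice alone. Meg3 of the Dlk1-Dio3 locus had 0.392, 0.181 and 0.348 FPKM at day 0 and 1.19, 2.91 and 8.31 at day 21 (log2 1.72, SE 0.63, adjusted p 0.13), and Rian of the same locus 0.236, 0.123 and 0.234 before and 0.952, 1.87 and 5.80 after (1.49, adjusted p 0.13). In both the groups did not overlap and mouse C was the highest. H19 had 2.03, 0.415 and 0.486 FPKM before and 11.7, 42.9 and 3.92 after (2.92, adjusted p 0.060), with mouse B the highest, and Igf2 overlapped between the groups (1.82, 0.200 and 0.220 before, 0.496, 0.616 and 3.02 after). Mirg, below the limit for testing, had at most 0.061 FPKM at day 0 and 0.169, 0.388 and 1.6 at day 21. Dlk1 had at most 0.005 FPKM before and 0.007, 0.019 and 0.229 after.

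The day 45 livers were compared with the same 3 uninjected mice, so that the values against day 0 share their controls and only the contrast of day 45 with day 21 is a test of change. It called 13 of 10743 genes (0.121%), and 1481 had an unadjusted p below 0.05. Epcam, a marker of duct and progenitor cells, is the one called among the genes named here. It had 0.963, 1.04 and 1.28 FPKM at day 0 and 3.25, 3.71 and 4.65 at day 21, with log2 fold changes against day 0 of 1.21 at day 21 and 3.34 at day 45 (adjusted p of the difference 0.032). This call was lost whichever day 0 or day 21 mouse was left out. Spp1 had 1.78 and 3.84 (adjusted p of the difference 0.052), Cd24a 1.47 and 3.34 (0.060), Meg3 1.72 and 5.03 (0.077), Rian 1.49 and 4.59 (0.060) and H19 2.92 and 7.25 (0.085). Igtp had 2.09 and 0.66 (0.20), Gm4841 3.06 and 0.63 (0.092) and Lyve1 1.53 and 0.40 (0.13). For Cdkn1a (3.93 and 3.75, adjusted p of the difference 0.94), Hfe2 (1.53 and 1.55, 0.98) and Ccng1 (2.43 and 2.82, 0.73) the values lay close together.

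**Figure D5:**
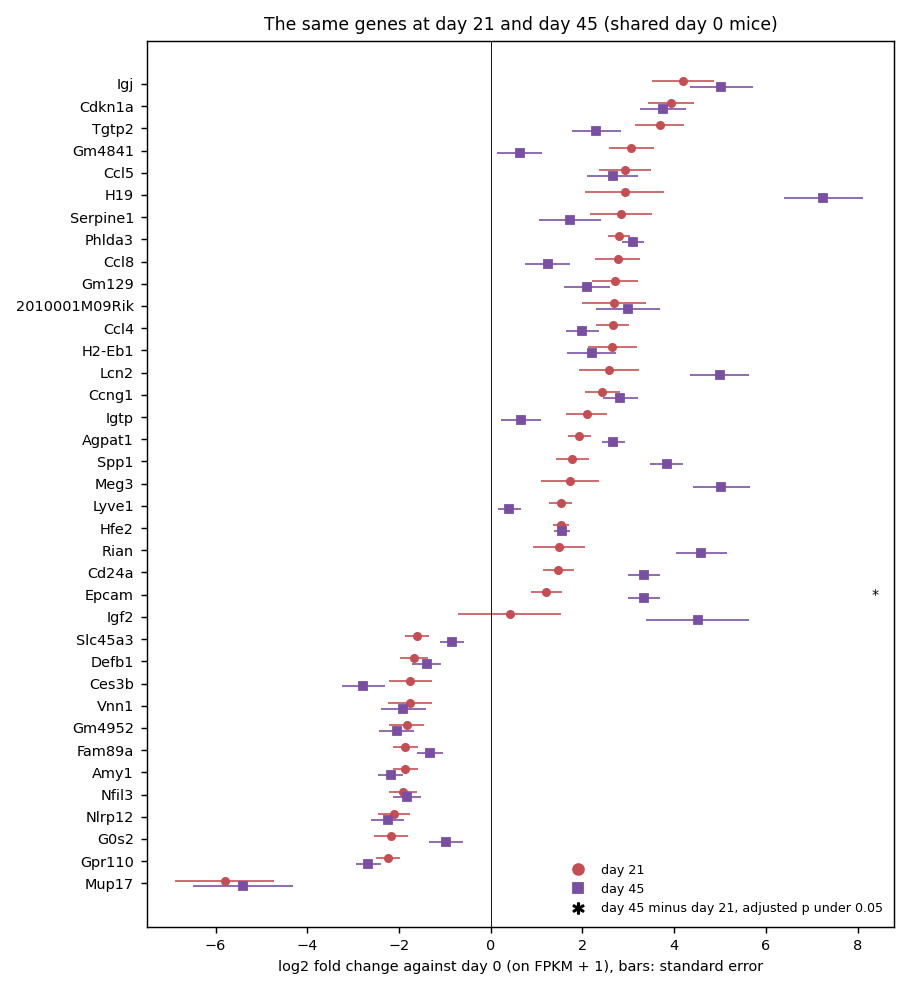
Log2 fold change against day 0 with its standard error for the 12 largest rises and 12 largest falls of day 21 and 13 further genes, at day 21 (red circles) and day 45 (violet squares). Both use the same day 0 mice. The star marks Epcam, the one gene plotted whose change from day 21 to day 45 passed an adjusted p of 0.05.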

How the data were processed

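RNA-seq of liver poly-A RNA and, for miR-122 itself, small RNA libraries of the same groups were used. The authors aligned RNA-seq reads to mm9 with TopHat, took out ribosomal, small nucleolar and mitochondrial RNA, and deposited FPKM from Cufflinks 2.2.1, scaled to the upper quartile. Some abundant genes, such as Alb, are listed at exactly 0, and the cause was not tested. Small RNA values were deposited by the authors as RPM (Bowtie 0.12.7 is named in the submitters' processing notes). Rows of 1 symbol were summed here, and limma 3.58.1 (R 4.3.3, trended variance, two-sided tests) was fitted to log2(FPKM + 1) of all 14 libraries, with 9 residual degrees of freedom, for genes whose mean over the 6 libraries reached 1 FPKM. P-values were adjusted by Benjamini-Hochberg over the 10743 genes, with a threshold of 0.05. The script was tested on simulated data with 200 genes changed. It called 0% of them at a true log2 change of 0.5, 50% at 1 and 93.5% at 2. A gene that was not called may therefore still have changed.

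Samples were grouped by the labels, which give neither sex nor hour. Sex was read from Xist and Y-linked genes. The text names the 12 largest rises and falls that do not overlap between groups, known targets, of each list up to 4 called members and the 2 of highest mean, genes the study names, and of the predicted targets the 6 largest rises and 3 largest falls. Outside this rule 33 genes were added with their values already seen, among them Foxo3, Vamp3, Vcam1, Ptprc and the genes of the closing paragraph. The members and lists were chosen with earlier results of these data known. Alternatives changed the pseudocount (0.1 FPKM), the filter (none, or 5 FPKM), scaling, trend, row sums, libraries fitted and the replicate letter. A sex term and female mice alone were chosen after seeing the data. Predicted target lists are the study's, and 3′ UTRs came from GENCODE M1.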

Additional observations from a re-analysis of the deposited data

Results flagged for a closer look

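Epcam, a marker of duct and progenitor cells, differed between the 2 times after Cre by the test of the difference itself. Its log2 fold change against the same uninjected mice was 1.21 at day 21 and 3.34 at day 45, a difference of 2.13 (limma, adjusted p 0.032), and it was the one gene named here for which this contrast passed the threshold. The mean over 3 mice was 3.87 FPKM at day 21, against 1.09 at day 0. The change from day 21 to day 45 did not pass when any 1 mouse of day 0 or day 21 was left out, and no day 45 mouse was left out.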

How the results depend on the processing

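No called gene changed direction under any alternative. The count of 846 calls became 1497 with the 6 libraries fitted alone and 439 with the filter at 5 FPKM, where 6961 genes were tested, and lay between 267 and 637 with 1 mouse left out. With the sex term it was 1011, and then 230 to 750 with 1 mouse left out. The 24 predicted miR-122 targets called higher became 42 with the 6 libraries alone and 10 to 16 with 1 mouse left out, while the 136 calls among the gene lists became 214 and 49 to 108. Of 128 called genes named here, 60 were called whichever mouse was left out. The change from day 21 to day 45, called for 1 named gene, was called for 2 without the variance trend, 2 with a pseudocount of 0.1 FPKM, 3 with the sex term, 8 in female mice alone, and 0 with the 5 FPKM filter, with no filter, after rescaling or with any 1 day 0 or day 21 mouse left out. The miR-122 share kept its direction, with log2 ratios of −2.68 to −2.37 with 1 mouse left out, and −4.01 per read of other microRNAs. The cause of these shifts was not tested, other than that fewer mice or genes entered.

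The replicate letters do not pair the mice, since same-lettered deviations correlated at 0.17, −0.39 and −0.37 for A, B and C, and only a letter is shared. With the letter as a replicate block in the fit of the 6 libraries alone 904 genes were called, against 1497 in that fit without the block, and 603 of the 904 were among the 846.

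Genes that changed sign were all uncalled and mostly near 0. In female mice alone Bst2 had −0.15, Fasn 0.07, Hpx −0.25, Igf2 −0.25, Krt19 −0.02 and Krt7 −0.07, and after rescaling, which moved the median of all genes from 0.05 to −0.004271, Hpx had −0.05. With 1 mouse left out the ranges crossed 0: Bst2 ranged from −0.04 to 0.20, Fasn from −0.74 to 0.30, Hfe from −0.09 to 0.01, Hpx from −0.15 to 0.11, Igf2 from −0.04 to 0.82, Krt19 from −0.04 to 0.29, Krt7 from −0.11 to 0.22, Sqle from −0.45 to 0.37, Srsf7 from −0.16 to 0.03, Stag2 from −0.05 to 0.19, and Trf, which is listed at 0 in 4 libraries, from −4.21 to 4.31.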

Other observations

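Some genes outside the lists, chosen after their values were seen, were called whichever mouse was left out. Alpl, the tissue-nonspecific alkaline phosphatase, had 4.55, 3.25 and 3.31 FPKM at day 0 and 24.2, 17.0 and 22.5 at day 21 (log2 2.24, adjusted p 0.0026). Cd274, which encodes the immune checkpoint ligand PD-L1, rose by 1.79 (adjusted p 0.0037), and Wee1, a kinase that holds back mitosis and is known to follow the clock, by 1.81 (adjusted p 0.0048). Aqp8, a water channel of the hepatocyte, went from 144, 145 and 192 FPKM to 67.5, 60.9 and 48.7 (−1.43, adjusted p 0.0077), and Plin5, a coat protein of lipid droplets, fell by 1.25. Sco2 (−1.36) and Tymp (−1.49) overlap in the genome, and reads may be shared between them, so the falls of the pair cannot be told apart.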
